A study of Mus musculus with 12 samples.

Results

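The genes described here encode parts of cullin-RING ubiquitin ligases and their substrate receptors, and they include Dcaf1, the gene named in the genotype of the mutant mice, which the count table lists under its older symbol Vprbp. Members were taken from the table by gene symbol: cullins, the CUL4 adaptor genes, subunits of the COP9 signalosome, exchange factors, and the F-box, Kelch-like, Kctd and Asb families, with at least 120 estimated counts summed over the 12 libraries. Of 135 rows with such a symbol, 28 fell below that sum and Fbxl2 was left out by the rule, so 106 members of the 13404 listed genes remained. They comprise 7 cullins, 8 COP9 subunits, 9 genes of the DDB1-CUL4 arm, 42 F-box, 15 Kelch-like, 16 Kctd and 8 Asb genes and the exchange factor gene Cand2. Just inside the sum lay Klhl31 with 121.8, Fbxl13 with 124.0 and Kctd19 with 141.9 estimated counts, and just outside it Asb4 with 106.0, Fbxw13 with 86.0 and Asb15 with 52.1. All 106 passed the filter on low counts and were tested.

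RNA was sequenced from 2 kinds of CD4+ T cell sorted by flow cytometry from the spleen of C57BL/6 mice: regulatory T cells (Treg), sorted as CD4+CD25+, and conventional T cells (Tconv), sorted as CD4+. Each kind came from wild-type mice of 2 months (young), wild-type mice of more than 18 months (aged) and Dcaf1-deficient mice of 2 months, which gives 6 groups of 2 libraries. The allele, and the promoter of any Cre behind the deficiency, are not given in the sources used here. No label says that the 2 libraries of a group came from separate animals. In aged Treg, aged Tconv and Dcaf1-deficient Treg the 2 differed in sex by Xist (below), so they came from different mice. The p-values measure only the spread between these libraries, which may be technical in the other groups. Totals ran from 18358477 to 26852448 estimated counts per library. Levels are given in CPM, the estimated counts divided by the scaled total of the library, and values joined by a slash are those of library 1 and library 2 of a group. A gene was called where the adjusted p of edgeR's quasi-likelihood test was below 0.05.

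A cullin-RING ligase is built on a cullin scaffold that holds a RING protein and its ubiquitin-conjugating enzyme at one end and, through an adaptor, a substrate receptor at the other. CUL1 takes F-box proteins through SKP1, CUL2 and CUL5 take receptors through elongins (the ASB proteins among them, with CUL5), CUL3 takes BTB proteins such as those of the Kelch-like and KCTD families directly, and CUL4A and CUL4B take DCAF proteins through DDB1. Attachment of NEDD8 switches the cullin on, the COP9 signalosome removes it, and CAND proteins help exchange one receptor for another. In T cells these ligases set the stability of signalling proteins, transcription factors and cell cycle regulators. DCAF1 is a CUL4 receptor known for its part in the growth and division of lymphocytes.

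The stretch upstream of the start is shown for Vprbp, because its deficiency defines a genotype, and for Fbxw17 and Klhl4, which rose in aged Tconv (values below). Each is 200 bases on the + strand, from 250 to 51 bases before the start annotated by RefSeq on GRCm38.p6. For Vprbp that start lies 50 bases inside the GENCODE M21 gene, so its stretch ends right before the GENCODE start, and for the other two both starts coincide. They lie at chr9:106821674-106821873 for Vprbp, chr13:50417614-50417813 for Fbxw17 and chrX:114474083-114474282 for Klhl4, and overlap no annotated exon. Capitals mark a match to any of 9 motifs searched on both strands.
Vprbp: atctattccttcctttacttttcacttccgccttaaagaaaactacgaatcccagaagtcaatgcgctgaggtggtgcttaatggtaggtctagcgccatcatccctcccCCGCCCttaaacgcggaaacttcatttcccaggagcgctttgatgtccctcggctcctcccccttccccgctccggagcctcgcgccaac
Fbxw17: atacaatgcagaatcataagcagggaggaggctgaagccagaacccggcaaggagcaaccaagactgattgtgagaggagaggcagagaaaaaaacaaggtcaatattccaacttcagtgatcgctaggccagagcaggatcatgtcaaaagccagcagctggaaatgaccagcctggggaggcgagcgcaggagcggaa
Klhl4: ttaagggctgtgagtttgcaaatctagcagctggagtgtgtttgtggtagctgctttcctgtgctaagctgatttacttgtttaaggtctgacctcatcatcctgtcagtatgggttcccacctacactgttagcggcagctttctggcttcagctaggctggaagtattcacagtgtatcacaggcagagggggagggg
The Vprbp stretch held 1 SP1 GC box (GGGCGG, here read on the other strand), which 24.6% of 32851 promoter windows of the same length also held. The Fbxw17 and Klhl4 stretches held none of the 9 sets of letters. Of the other letters searched, the ETS motif CCGGAAG was held by 3.98% of those windows. The CCAAT box occurred in 28.4%. The cyclic AMP response element TGACGTCA occurred in 0.828% of windows and the E-box CACGTG in a share of 4.34%. The AP-1 motif TGANTCA was present in 5.57%. The TATA box, searched as TATAAA, was found in 9.14% of windows. The GATA motif was searched as AGATAA and was held by 8.42%, and the E2F motif, searched as GCGGGAA, by 2.95%. GC content was 54.5% in Vprbp with 13 CpG, 52.0% in Fbxw17 with 5 CpG and 49.5% in Klhl4 with 1 CpG.

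Several libraries differed in ways that touch the results. Macrophage genes (8 of 8 measured) summed in Treg to 139.9/4103 CPM (young), 10470/616.6 (aged) and 12350/15200 (Dcaf1-deficient), and in Tconv to 18.49 to 263.3 in wild-type and 1017/1093 in Dcaf1-deficient libraries. For B cell genes (5 of 6 measured) the Treg sums were 57.73/1917, 1551/62.86 and 1813/1907 CPM, and for erythroid genes (7 of 10) 18.03/1441, 4400/132.2 and 5180/11910, so young Treg 2, aged Treg 1 and both Dcaf1-deficient Treg libraries carried far more of these RNAs than young Treg 1 and aged Treg 2. In Tconv the erythroid sums were 6.054 to 142.4 CPM in wild-type and 1483/1476 in Dcaf1-deficient libraries. The B cell sums there were 15.68 to 127.0 and 198.2/207.4 CPM. No listed macrophage, B cell or erythroid gene that was measured was at 0 in all libraries, and Cd8a and Cd8b1 were not analysed here. In young mice Foxp3 separated the labelled cell types, with 1428/812 CPM in Treg against 47.7/78.4 in Tconv. It was 745.5/1986 in aged Treg and 334/675 in aged Tconv. In Dcaf1-deficient mice it was 625/535 in Treg and 80.8/75.65 in Tconv, so aged Tconv 2 lay above both Dcaf1-deficient Treg libraries. Il2ra was at least 576 CPM in every Treg library and at most 63.2 in every Tconv library. Rpl29, a ribosomal protein gene that separated the genotype labels with 1 library in between, was 34.0/31.5 CPM in Dcaf1-deficient Treg, 43.0/37.9 in Dcaf1-deficient Tconv and at least 438 in the wild-type libraries except aged Treg 1, with 92.7. In 82 of 106 members (77.36%, against 83.09% of all tested genes) the library labelled aged Treg 1 lay closer to the mean of Dcaf1-deficient Treg than to aged Treg 2. By Xist, aged Treg 2, aged Tconv 2, Dcaf1-deficient Treg 2 and both Dcaf1-deficient Tconv libraries came from female mice and the others from male mice, so sex and genotype cannot be told apart in Tconv. Of the members 4 are X-linked (Cul4b, Klhl4, Klhl15 and Kctd12b). A tag of unstated meaning in the sample titles reads L4 in 5 of the 6 Treg libraries and in 1 of the 6 Tconv libraries.

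The scaffold of the system was present at similar levels in all groups. Per kilobase of exon, Cul3 was highest among the cullins, with a mean of 59.13 CPM per kilobase over the 12 libraries, followed by Cul1 with 48.24 and Cul4b with 24.57. Cul1, the scaffold for F-box proteins, was 187/193 (young), 199/216 (aged) and 196/199 CPM (Dcaf1-deficient) in Treg and 190.5/188, 201/196 and 183/191 CPM in the matching Tconv groups, so its highest library was 1.176 times its lowest. Cul3, the scaffold for BTB proteins, was 336/266, 253/325 and 238/228 CPM in the same Treg groups and 328/320.1, 278/266 and 303/317 in the same Tconv groups. The Cul3 values of Dcaf1-deficient Treg lay below those of the other 10 libraries. No cullin was called in any comparison.

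Cul4a and Cul4b, the paired scaffolds of the DCAF receptors, ranged over the 12 libraries from 84.7 to 106 and from 79.9 to 115 CPM. Cul2 ranged from 50.8 to 65.0 and Cul5, the scaffold of the ASB receptors, from 67.2 to 88.4. Cul9, a large cullin that binds p53 in the cytoplasm, ranged from 28.2 to 53.7 with its highest value in aged Tconv 1. Cul7, the RING gene Rbx1, Ddb1 and Cand1 were not analysed here.

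In none of the COP9 signalosome genes did the highest library reach 2 times the lowest. Cops6 had the highest level per kilobase, 39.04, then Cops2 with 32.39 and Cops3 with 21.88 CPM per kilobase. Cops5, which encodes the enzyme that cleaves NEDD8 from cullins, was 72.7/75.3 (young), 80.2/68.0 (aged) and 83.0/83.1 CPM (Dcaf1-deficient) in Treg and 73.3/74.0, 67.9/75.9 and 73.0/83.5 CPM in the matching Tconv groups. Both Dcaf1-deficient Treg libraries lay above the other Treg libraries, and the Tconv groups overlapped; Cops5 was not called in any comparison. The ranges over the 12 libraries were 103 to 139.8 CPM for Cops2, 65.9 to 82.6 for Cops3, 69.8 to 97.6 for Cops4, 84.7 to 125 for Cops6, 22.2 to 36.8 for Cops7b and 75.1 to 93.7 for Cops8. Cand2, a relative of the exchange factor gene Cand1, was the exception among core genes: it was 28.2/78.4 CPM in aged Tconv and 20.2/44.9 in aged Treg against 24.9/28.3 in young Tconv and 28.1/23.5 in young Treg. In both aged pairs the second library, each female and carrying the title tag L3, was the high one, and neither age comparison of Cand2 passed the test (adjusted p = 0.225 in Tconv and 0.744 in Treg).

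**Figure D1:**
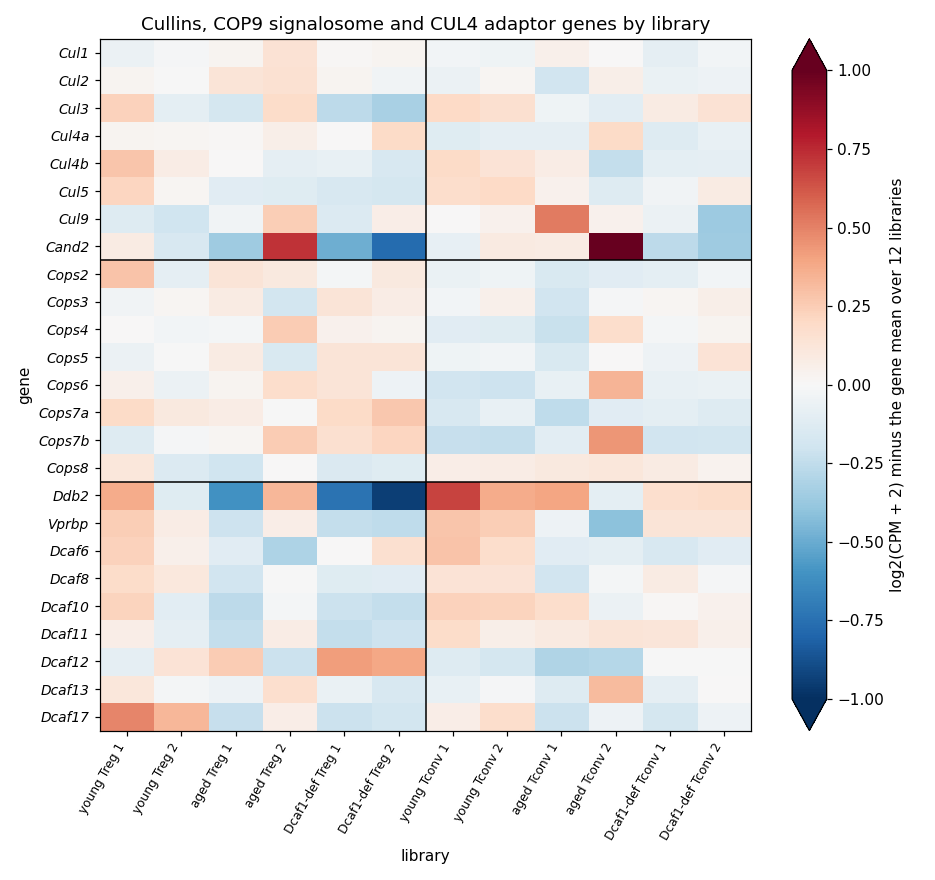
Level of each cullin, exchange factor, COP9 and CUL4-arm gene (rows) in each of the 12 libraries (columns), as log2(CPM + 2) minus the mean of that gene over the libraries, with the colour scale ending at -1 and 1. Most rows are pale; Cand2 stands out in both second aged libraries and Ddb2 is low in Dcaf1-deficient Treg and in aged Treg 1.

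Evenness held for most of the list. Of the 91 members with a mean of at least 4 CPM, 67 (73.63%) had a highest library less than 2 times the lowest, against 52.77% of the 7533 tested genes at that level, and the median of highest over lowest was 1.646 against 1.919. The 15 members that varied more than 3 times were Asb2, Asb13, Cand2, Ddb2, Fbxo17, Fbxo44, Fbxw8, Fbxw9, Fbxw10, Fbxw17, Kctd11, Kctd12, Kctd12b, Kctd14 and Klhl6. Klhl14, at 0 in young Tconv 1, has no such ratio and is described below with the genes of other cells. Klhl6, a Kelch-like receptor known from B cell receptor signalling, had the highest level per kilobase of all members, 93.47 CPM per kilobase, and Asb2, which directs the breakdown of filamins, the third highest with 54.55.

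In the CUL4 arm, Vprbp itself lay at 15.72 CPM per kilobase, the fifth of its 9 genes, below Ddb2 (46.07), Dcaf12 (34.70), Dcaf11 (22.08) and Dcaf8 (17.21). Vprbp spans chr9:106821874-106880992 on mm10 by GENCODE M21. It was 144/128 (young), 105/127 (aged) and 102/101 CPM (Dcaf1-deficient) in Treg and 147/144, 117/90.5 and 132/132 CPM in the matching Tconv groups. The mutant values were below both young values of the same cell type, and aged Tconv lay lower still than Dcaf1-deficient Tconv. Against young cells the differences were -0.42 in Dcaf1-deficient Treg (SE 0.14, adjusted p = 0.148), -0.14 in Dcaf1-deficient Tconv (SE 0.14, adjusted p = 0.731), -0.49 in aged Tconv (SE 0.14, adjusted p = 0.0672) and -0.23 in aged Treg (SE 0.14, adjusted p = 0.409) on the log2 scale, and none was called. Single deleted exons cannot be seen in a count summed over the gene, so these values do not check the genotype. In bulk samples a lower share of cells and less RNA per cell cannot be told apart.

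**Figure D2:**
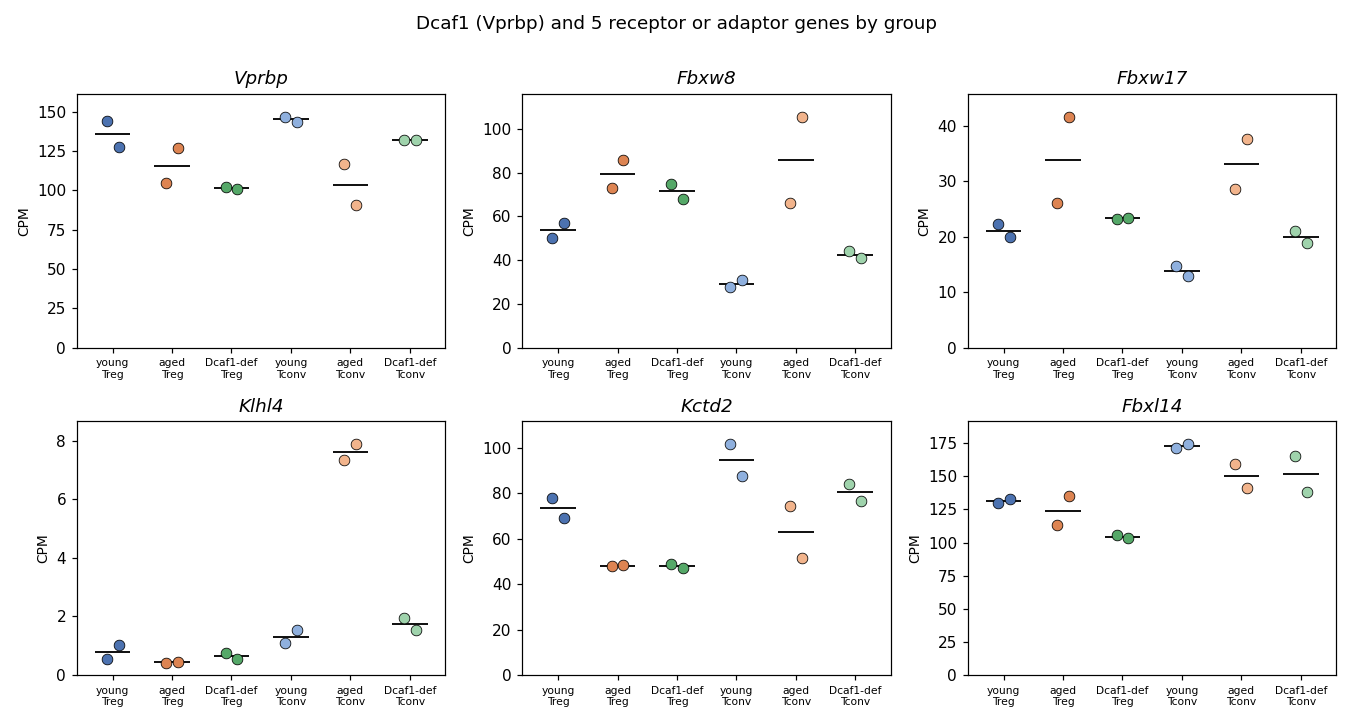
CPM of Vprbp, Fbxw8, Fbxw17, Klhl4, Kctd2 and Fbxl14 in the 6 groups; points are the 2 libraries of a group, the line is their mean, and each axis starts at 0. Aged Tconv stand above young Tconv for Fbxw8, Fbxw17 and Klhl4, and every Treg library lies below every Tconv library for Fbxl14.

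Treg and Tconv were first compared over the 3 conditions together, as the mean of the 3 differences within a condition. Of 106 members 13 (12.3%) were called, against 22.5% of all 9495 tested genes: 6 were higher in Treg, against 11.5% of all genes, and 7 lower, against 11.0%. Higher in Treg were the COP9 subunit gene Cops7a, the DCAF gene Dcaf12, the F-box gene Fbxw8 and the BTB gene Kctd12b. Lower were Fbxl14, Fbxo28 and Fbxo9 of the F-box family, the BTB genes Kctd2 and Kctd10 and the SOCS-box gene Asb6. The members Kctd19, Fbxl21 and Klhl4, which lie under 4 CPM and are named here after their values were seen, completed the list, the first pair higher and Klhl4 lower.

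Fbxl14, a receptor for Snail-family transcription factors, was lower in Treg with the smallest p of these among members above 4 CPM. It ranged from 103 to 135 CPM with a median of 122 in the 6 Treg libraries and from 138 to 174 with a median of 162 in the 6 Tconv libraries. The 2 sets did not overlap (log2 fold change -0.40, SE 0.07, adjusted p = 0.00950). In young Treg 1 and aged Treg 2, the Treg libraries with the fewest macrophage and B cell RNAs, it stood at 129.9 and 135 CPM, also below all Tconv libraries. The part of other cells in the difference was not tested. Asb6, an adaptor of insulin receptor signalling, ranged from 51.2 to 59.4 CPM in Treg and from 61.8 to 74.2 in Tconv, again without overlap (log2 fold change -0.37, SE 0.07, adjusted p = 0.0141). Groups without overlap were found for 5 of 106 members (4.72%), against 4.18% of all tested genes: Klhl4 and, described here, Fbxl14, Asb6, Cops7a and Kctd12b.

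Cops7a, a COP9 subunit gene, ranged from 58.4 to 70.9 CPM in Treg and from 48.9 to 55.7 in Tconv, without overlap (log2 fold change 0.28, SE 0.06, adjusted p = 0.0166). It was the COP9 gene called, and of the 8 COP9 genes 7 had higher values in Treg with a median difference of 0.09 on the log2 scale, against 0.00 over all tested genes. Among all 9495 tested genes 4724 had higher values in Treg. Kctd12b, an X-linked relative of an auxiliary subunit of GABA-B receptors, ranged from 8.51 to 41.2 CPM in Treg and from 0.333 to 7.42 in Tconv (log2 fold change 2.50, SE 0.43, adjusted p = 0.0116). It was highest in the Treg libraries with most macrophage RNA, 27.6 CPM in aged Treg 1 and 27.9/41.2 in Dcaf1-deficient Treg, and the part of such cells in the difference was not tested. In young Treg 1 and aged Treg 2 it was 10.9 and 8.51 CPM, and the highest Tconv value was 7.42. The macrophage sums of those Treg libraries were 139.9 and 616.6 CPM. In Tconv these sums were 18.49 to 263.3 in wild-type and 1017/1093 in Dcaf1-deficient libraries.

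The other called members above 4 CPM overlapped between cell types when conditions were pooled. Kctd2 had medians of 48.6 CPM in Treg against 80.5 in Tconv (log2 fold change -0.50, SE 0.10, adjusted p = 0.0151). Fbxo28 had medians of 80.2 and 97.4 (log2 fold change -0.32, SE 0.07, adjusted p = 0.0179). Kctd10, a CUL3 adaptor, had medians of 144 and 183 (log2 fold change -0.31, SE 0.09, adjusted p = 0.0392), and Fbxo9 had medians of 55.8 and 68.5 (log2 fold change -0.28, SE 0.08, adjusted p = 0.0424). Those 4 were lower in Treg within each condition by group mean. Fbxw8, the partner of CUL7, had medians of 70.6 CPM in Treg against 42.6 in Tconv (log2 fold change 0.50, SE 0.12, adjusted p = 0.0254). By group mean it was higher in Treg in young and in Dcaf1-deficient mice, and in aged mice the order was turned, with 79.45 CPM in Treg against 85.82 in Tconv. Dcaf12, a receptor for proteins with an acidic C terminus, had medians of 135 and 106 (log2 fold change 0.31, SE 0.09, adjusted p = 0.0376). Dcaf12 was also highest in the libraries rich in macrophage and erythroid RNA, with 140.5 CPM in aged Treg 1 and 158/154 in Dcaf1-deficient Treg and lower, at 101 and 110.5 CPM, in aged Treg 2 and young Treg 1. The part of those cells was not tested.

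These calls depended on the fit. With the title tag as a term 1 of the 13 remained past the threshold, Kctd12b, against 2.35% of all genes. In that fit Asb6 (-0.38), Kctd2 (-0.47), Cops7a (0.27), Fbxo28 (-0.34), Fbxo9 (-0.31) and Fbxw8 (0.48) had log2 fold changes close to those above, while Fbxl14 was at -0.30 (adjusted p = 0.239), Kctd10 at -0.20 and Dcaf12 at 0.17. Leaving out single libraries gave 2 to 23 calls, the lowest without Dcaf1-deficient Tconv 1, against 5.02% of all genes, and the highest without aged Treg 2, against 30.9%. Without Dcaf1-deficient Treg 1 it was 7, against 7.84%. It was 4 without Dcaf1-deficient Treg 2 (7.43% of all genes), young Tconv 1 (5.89%) or Dcaf1-deficient Tconv 2 (6.09%).

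Within young mice alone no member was called by edgeR between Treg and Tconv, against 0.800% of all genes; at an unadjusted p under 0.05 there were 6, against 14.3%. DESeq2 called 2, Fbxw8 and Fbxl14, against 6.85%, and limma on the deposited log2 values called 0, against 1.26%. Fbxw8 was 50.4/57.0 CPM in young Treg against 27.7/30.9 in young Tconv (log2 fold change 0.87, SE 0.21, adjusted p = 0.111). Fbxl14 was 129.9/133 CPM in young Treg against 172/174 in young Tconv (log2 fold change -0.40, SE 0.12, adjusted p = 0.188). In both the 2 libraries of each group lay close together and apart from the other group. Values of 46 members (43.4%) did not overlap between the groups, against 49.3% of all tested genes. Above 4 CPM the next of them by p were Cops7a, 67.0/62.8 CPM in young Treg against 52.2/55.7 in young Tconv, Fbxw17, 22.3/19.9 and 14.7/12.9, Fbxw9, 7.16/8.53 and 4.32/5.22, and Dcaf17, 72.8/65.3 and 54.0/58.2, all higher in Treg. Asb6, with 59.4/51.2 and 72.4/66.1, and Kctd2, with 77.9/69.2 and 102/87.5, had lower values in Treg. None of these 6 passed the test (adjusted p = 0.281 to 0.388). Vprbp differed by -0.10 (adjusted p = 0.785).

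Between aged and young Tconv 3 of 106 members (2.83%) were called, against 8.86% of all tested genes. All 3 rose with age and 0 fell, whereas 6.38% of all tested genes rose and 2.47% fell. Fbxw8 rose from 27.7/30.9 CPM in young to 66.0/106 in aged Tconv (log2 fold change 1.55, SE 0.21, adjusted p = 0.0158). Fbxw17, another F-box gene with WD repeats, rose from 14.7/12.9 to 28.7/37.6 CPM (log2 fold change 1.26, SE 0.24, adjusted p = 0.0269). Klhl4, an X-linked Kelch-like gene, rose from 1.08/1.54 to 7.33/7.89 CPM (log2 fold change 2.54, SE 0.40, adjusted p = 0.0199). With the title tag as a term in edgeR, Klhl4 was at 2.39 and no longer called (adjusted p = 0.0535). In each case both aged libraries lay above both young ones, and for Klhl4 both aged Tconv libraries also lay above all 10 others, the highest of which was 1.95 CPM. The Treg genes listed as markers summed to 2306 and 3486 CPM in aged Tconv, against 412.9 and 490.9 in young Tconv. Foxp3, Ikzf2, Ctla4 and Tnfrsf18 were each higher in both aged libraries. Il2ra, the gene for CD25, was not, with 43.1/29.7 CPM in aged against 31.8/63.2 in young Tconv. In the Treg libraries Fbxw8 ranged from 50.4 to 85.9 and Fbxw17 from 19.9 to 41.6 CPM, above both young Tconv libraries, whereas Klhl4 was at most 1.04 CPM. The part of Treg in these differences was not tested.

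Values of 60 members (56.6%) did not overlap between young and aged Tconv, against 59.0% of all tested genes. Among those that did not pass the test, 5 had the smallest p. Fbxo44 was 1.88/2.58 CPM in young against 5.11/13.2 in aged Tconv (adjusted p = 0.0541), Kctd11 4.04/3.69 and 8.05/21.6 (adjusted p = 0.0563) and Fbxw9 4.32/5.22 and 7.55/13.6 (adjusted p = 0.0656). Lower in aged Tconv by value were Vprbp, given above, and Kctd2, 102/87.5 and 74.4/51.5 (adjusted p = 0.0719). Aged Tconv 2 was the more extreme library in all 5. Of the 9 genes of the CUL4 arm 8 had lower values in aged Tconv, with a median of -0.24 against 0.00 over all tested genes, and of the 15 Kelch-like genes 12 did, with a median of -0.31. Among all 9495 tested genes 4761 had lower values. Klhl6 was 326/302 CPM in young against 208/104 in aged Tconv (adjusted p = 0.0988).

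The count of calls moved with the libraries in the fit. Without aged Tconv 1, 25 members were called, beside 2340 of 9768 tested genes, and without aged Tconv 2 it was 1, against 0.957%. Without young Tconv 1 or young Tconv 2 it was 0, against 0.00% of all genes in both. The fold changes were as large there: 1.48 and 1.62 for Fbxw8 (adjusted p = 0.165 and 0.118), 1.37 and 1.16 for Fbxw17 and 2.30 and 2.80 for Klhl4 on the log2 scale. Without Dcaf1-deficient Tconv 1 or 2 it was 1, against 1.61% and 1.12%. Without the Treg libraries aged Treg 1 or aged Treg 2 it was 5, against 12.5% and 12.4%. DESeq2 called 16 members, against 21.6% of all genes, with Vprbp among them, and with aged Treg 1 and young Treg 2 left out edgeR called 8, against 14.7%.

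In Treg, age gave no call by edgeR among members, against 0.00% of all genes, with 12 members at an unadjusted p under 0.05, against 17.9%. DESeq2 called 4, Asb2, Dcaf17, Kctd2 and Klhl22, against 7.89%, and limma 0, against 0.0177%. Dcaf17 was 72.8/65.3 CPM in young against 43.5/53.9 in aged Treg (log2 fold change -0.50, SE 0.14, adjusted p = 0.162). Kctd2 was 77.9/69.2 and 47.8/48.3 CPM (log2 fold change -0.61, SE 0.17, adjusted p = 0.169). Dcaf6, a coactivator of nuclear receptors, was 76.0/66.9 and 59.6/51.7, and Fbxl4, which acts in mitochondrial turnover, was 37.3/39.2 and 26.8/25.1. In these 4 both aged libraries lay below both young ones; 38 members (35.8%) did not overlap in either direction, against 42.7% of all tested genes.

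Higher values in aged Treg were seen for Klhl22, Fbxw17, Fbxw8 and Asb2. Klhl22, a receptor that acts on the nutrient-sensing GATOR complex, was 24.2/25.5 CPM in young against 29.4/44.9 in aged Treg (adjusted p = 0.199), Fbxw17 22.3/19.9 and 26.01/41.6 (adjusted p = 0.222) and Fbxw8 50.4/57.0 and 73.0/85.9 (adjusted p = 0.234). In all 3 aged Treg 2 was the higher aged library. Without the library labelled aged Treg 1 edgeR called 2, Fbxw17 and Klhl22, against 4.44% of all genes, and without both young Treg 2 and aged Treg 1 it called 0, against 2.50%, with 1 library left in each of the 2 groups and the lone library assumed to vary like the other groups.

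Asb2 spanned 40.18 times from its lowest to its highest library and differed within every wild-type group. It was 17.7/84.1 (young), 166/379.6 (aged) and 182/244 CPM (Dcaf1-deficient) in Treg and 40.6/82.6, 172/709.4 and 124/117 CPM in the matching Tconv groups. All 8 libraries from aged and Dcaf1-deficient mice lay above all 4 from young wild-type mice. The differences from young cells were 2.42 in aged Treg, 2.84 in aged Tconv, 2.06 in Dcaf1-deficient Treg and 0.97 in Dcaf1-deficient Tconv on the log2 scale, with SE of 0.84 each. By edgeR none passed (adjusted p = 0.227, 0.0840, 0.192 and 0.684 in that order). The size depended on single libraries. Leaving out 1 library gave 1.70 to 3.95 for aged Treg (lowest without young Treg 1 or aged Treg 2, highest without young Treg 2). For aged Tconv it gave 1.48 to 3.52 (lowest without aged Tconv 2, highest without aged Tconv 1). For Dcaf1-deficient Treg it gave 1.34 to 3.59 (without young Treg 1 and young Treg 2), and for Dcaf1-deficient Tconv 0.56 to 1.57 (without young Tconv 1 and young Tconv 2). With the title tag as a term the aged differences were 1.43 in Treg and 1.68 in Tconv, and with sex as a term Dcaf1-deficient Tconv stood at -0.25. These comparisons share the young libraries of each cell type.

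**Figure D3:**
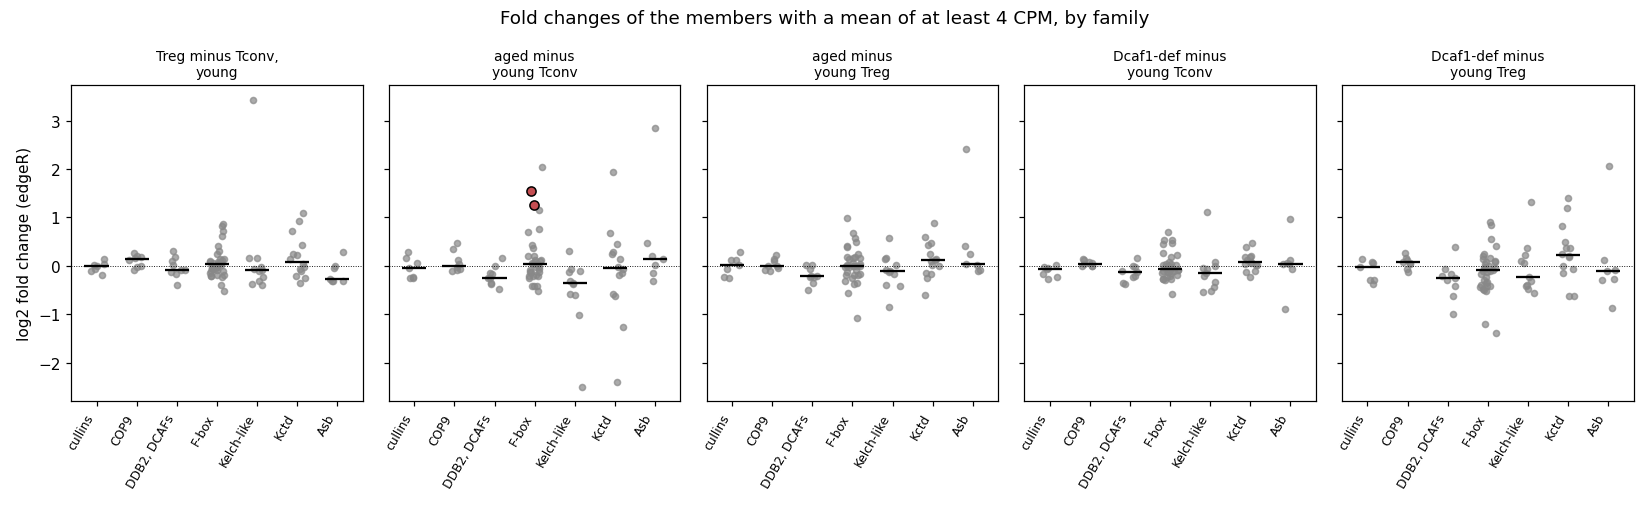
Log2 fold change (edgeR) of the members with a mean of at least 4 CPM other than Cand2, by family, in 5 comparisons; black lines are family medians and red points are called members. Red points appear only for aged against young Tconv (Fbxw8 and Fbxw17, as Klhl4 lies under 4 CPM). The largest change of any cullin or COP9 gene in the panels is 0.4623, for a COP9 gene in aged against young Tconv.

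Dcaf1-deficient Treg were compared with young Treg. No member was called by edgeR, against 0.00% of all genes, with 21 members at an unadjusted p under 0.05, against 24.8%. DESeq2 called 6, Asb2, Dcaf17, Ddb2, Fbxo28, Fbxo5 and Kctd2, against 12.8%, and limma 0, against 0.00%. Ddb2, which recognises ultraviolet damage in DNA for a CUL4 ligase, was 155/109.5 CPM in young and 71.0/61.2 in Dcaf1-deficient Treg (log2 fold change -1.002, SE 0.32, adjusted p = 0.144). Dcaf17 was 72.8/65.3 and 44.1/45.2 CPM (log2 fold change -0.63, SE 0.14, adjusted p = 0.131). Both genes had lower values in the mutant libraries. Groups without overlap were found for 70 members (66.0%), against 72.1% of all tested genes. Ddb2 in the library labelled aged Treg 1, with 78.0 CPM, was also below both young values, and in aged Treg 2 it was 151.

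Fbxo28 was 94.8/84.8 CPM in young and 65.9/68.3 in Dcaf1-deficient Treg, Kctd2 77.9/69.2 and 48.8/47.2, Fbxw2 157/128 and 111/103 and Klhl20 97.3/87.8 and 74.8/73.0, with adjusted p from 0.133 to 0.149. These 4 had lower values in both mutant libraries. Fbxo5, which encodes the EMI1 inhibitor of the anaphase-promoting complex and is made in dividing cells, went the other way, with 21.7/23.5 CPM in young and 40.8/40.7 in Dcaf1-deficient Treg (log2 fold change 0.85, SE 0.28, adjusted p = 0.145). It was also high in aged Treg 1 (38.6) and not in aged Treg 2 (21.03). Of the 9 genes of the CUL4 arm 8 had lower values, with a median of -0.26 against -0.01 over all tested genes. Dcaf12 was the exception. Among all 9495 tested genes 4805 had lower values. In aged Treg 7 of the 9 genes were lower (median -0.21), and in Dcaf1-deficient Tconv 8 were (median -0.14). Over all tested genes 4521 and 4758 were lower there.

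With young Treg 2 and aged Treg 1 left out, 15 members were called in this comparison, against 22.8% of all genes: Asb2, Cul3, Dcaf10, Dcaf12, Dcaf17, Ddb2, Fbxl17, Fbxo5, Fbxo11, Fbxo28, Fbxw2, Fbxw10, Kctd12, Kctd18 and Klhl20. That fit rests on young Treg 1 alone for the young side. The summed macrophage, B cell and erythroid genes given above were high in both Dcaf1-deficient Treg libraries and, with 4103, 1917 and 1441 CPM, in young Treg 2, and the summed T cell genes (7 of 10 measured) were 2570 and 2339 CPM in Dcaf1-deficient Treg against 5420 and 3685 in young Treg. Their part in these values was not tested.

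**Figure D4:**
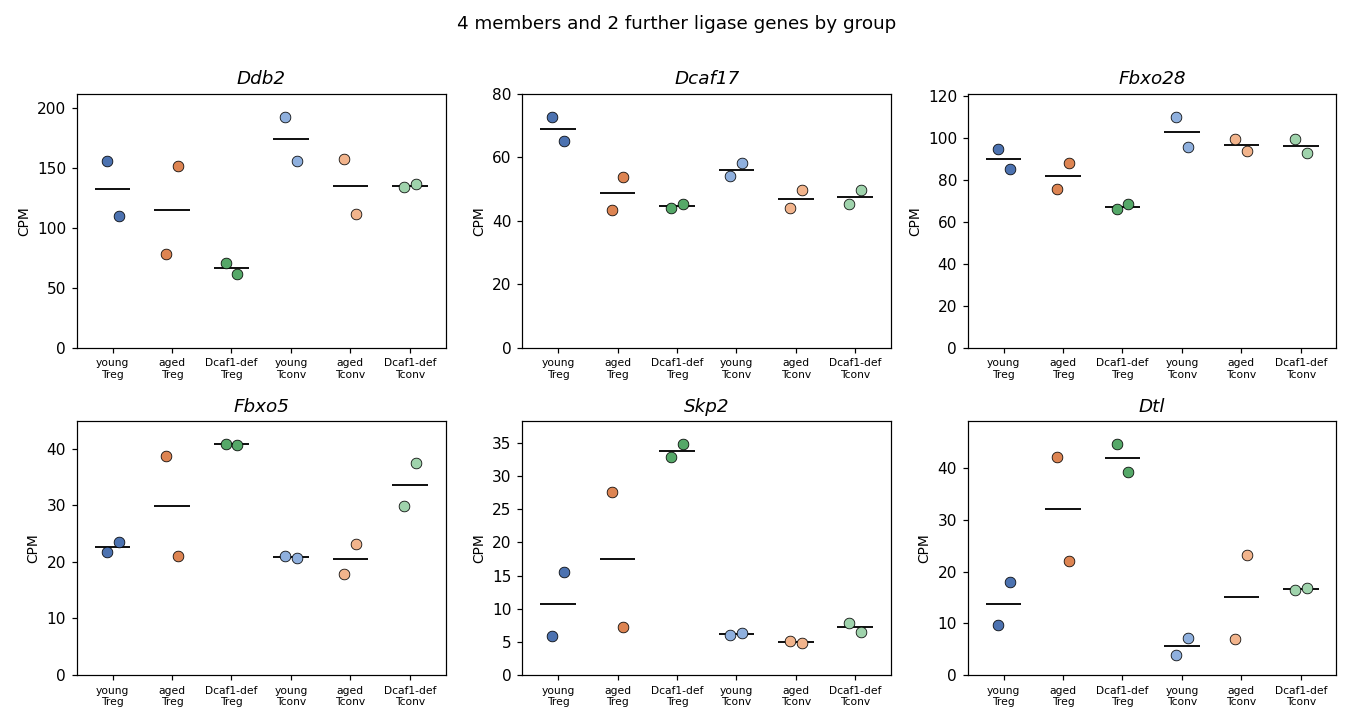
CPM of Ddb2, Dcaf17, Fbxo28, Fbxo5, Skp2 and Dtl in the 6 groups; points are libraries, lines are means of 2, and each axis starts at 0. Ddb2 and Fbxo28 are lowest, and Fbxo5 and Skp2 highest, in Dcaf1-deficient Treg; in Ddb2, Fbxo5, Skp2 and Dtl the first aged Treg library lies near the mutant ones.

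In Tconv the comparison of Dcaf1-deficient with young mice gave no call among members by edgeR, against 0.00% of all genes, or by DESeq2 (102 members with an adjusted p), against 2.45%, or by limma, against 0.0976%. At an unadjusted p under 0.05 there were 5 members, against 10.0%. Dcaf6 was 79.1/73.0 CPM in young and 57.4/59.4 in Dcaf1-deficient Tconv (log2 fold change -0.38, SE 0.12, adjusted p = 0.421). Fbxo5 was 20.98/20.7 and 29.9/37.4 CPM (log2 fold change 0.69, SE 0.28, adjusted p = 0.477). Fbxw8 was 27.7/30.9 and 44.1/41.0 (log2 fold change 0.54, SE 0.21, adjusted p = 0.464). Thus Fbxo5 and Fbxw8 had higher values in the mutant libraries and Dcaf6 lower ones, none past the threshold. Groups without overlap were found for 60 members (56.6%), against 66.8% of all tested genes.

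Fbxw17 also had higher values, 14.7/12.9 CPM in young and 21.1/18.9 in Dcaf1-deficient Tconv. Lower values were seen for Fbxl12, 126/116 and 83.6/76.4, for the iron sensor gene Fbxl5, 121/115 and 98.0/104, and for the X-linked pair Klhl15, 9.29/10.1 and 6.68/6.75, and Cul4b, 108/104 and 88.3/88.9. The adjusted p of these 5 ran from 0.472 to 0.512. With sex as a term, a fit added after the data were seen, the count stayed at 0, against 0.0105% of all genes.

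The differences between cell types in the response to age or to the genotype were tested as interactions. Neither gave a call among members by edgeR, against 0.00% of all genes in each; at an unadjusted p under 0.05 there were 5 for age, against 6.48%, and 2 for the genotype, against 2.74%. DESeq2 called 1 member for age, Klhl4, against 1.38%, and 0 for the genotype, against 0.00871%; limma called 0 in both, against 0.00887% and 0.00%. Klhl4 was 0.565/1.04 CPM in young against 0.416/0.460 in aged Treg, beside the rise in Tconv given above, and the difference between the cell types was -3.40 on the log2 scale (SE 0.58, adjusted p = 0.245). Over the alternative fits this difference ran from -3.77 to -1.76 for Klhl4 and from -1.28 to -0.61 for Fbxw8. For Fbxw8 the difference was -0.99 (SE 0.30, adjusted p = 0.554), with higher values in aged cells of both kinds. For Vprbp it was 0.26 for age (adjusted p = 0.932) and -0.28 for the genotype (SE 0.20 each).

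A few BTB genes were high in the libraries with much RNA of other cells. Klhl14, a Kelch-like gene known from B cells, was 0.377/16.1 (young), 18.4/0.138 (aged) and 19.5/21.8 CPM (Dcaf1-deficient) in Treg and 0/1.54, 0.167/0.0950 and 1.22/2.07 CPM in the matching Tconv groups. It was at least 16.1 CPM in the 4 Treg libraries in which Cd79a, a subunit gene of the B cell receptor, was at least 497 CPM, and below 0.4 in young Treg 1 and aged Treg 2, where Cd79a was 14.8 and 12.9. Kctd12 was 25.4/165 (young), 177/111 (aged) and 182/254 CPM (Dcaf1-deficient) in Treg and 56.9/106, 36.7/31.4 and 110.1/114 CPM in the matching Tconv groups. C1qa, a complement gene of macrophages, was 9.79/239, 567/96.2 and 694/756 CPM in the same Treg groups. In the same Tconv groups it was 0.282/13.8, 3.61/1.85 and 56.55/55.35 CPM. Kctd12 in young Tconv 2 thus lay near its Dcaf1-deficient Tconv values, although C1qa was lower there. Kctd14 was 2.73/12.7 (young), 8.10/4.92 (aged) and 8.72/11.2 CPM (Dcaf1-deficient) in Treg, with the young pair differing as for Kctd12. In Tconv it ranged from 1.62 to 4.95 CPM.

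**Figure D5:**
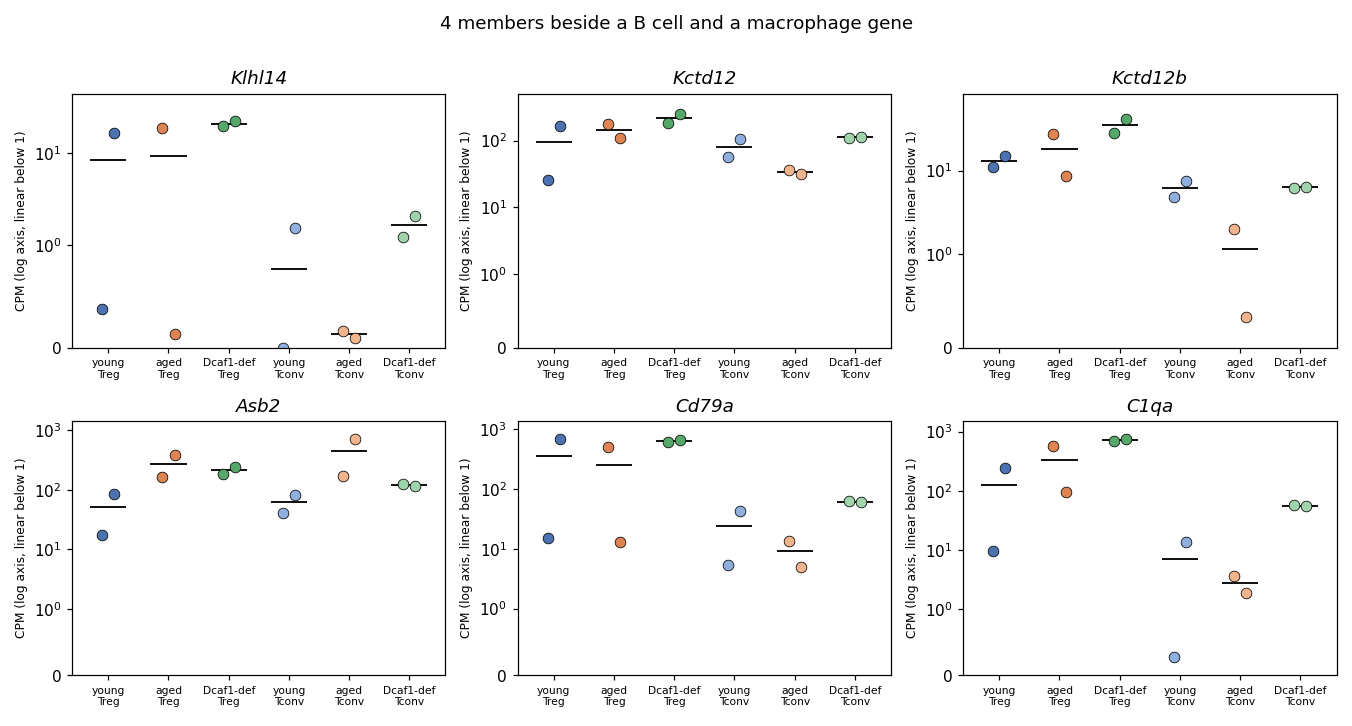
CPM of Klhl14, Kctd12, Kctd12b and Asb2 beside the B cell gene Cd79a and the macrophage gene C1qa in the 6 groups, on a log axis that is linear below 1; points are libraries and lines are means of 2. The second young Treg and first aged Treg library lie with Dcaf1-deficient Treg for Klhl14, Cd79a and C1qa, and Asb2 does not follow that split in aged Treg.

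Fbxw7, the receptor for cyclin E, MYC and Notch, ranged from 42.9 to 63.8 CPM over the 12 libraries, with the highest 2 values in Dcaf1-deficient Tconv. Fbxo11, a receptor for BCL6, ranged from 143 to 277 and was the second highest F-box gene per kilobase (44.00 CPM per kilobase, after Fbxl14 with 46.96 and before Fbxw11, a beta-TrCP gene, with 33.37). The most even F-box genes included Fbxo7 (48.1 to 57.9), Fbxo42 (64.6 to 77.8) and Fbxo45 (41.9 to 49.5).

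Other genes of the same pathway were given by a list of 43, of which 27 were measured. Over all conditions 3 were higher in Treg, against 11.5% of all tested genes, and 2 lower, against 11.0%. The higher ones were Socs2, a suppressor of cytokine signalling with a SOCS box (2.44 on the log2 scale, adjusted p = 0.00212), Skp2, the receptor for the cell cycle inhibitor p27 (1.61, adjusted p = 0.0206), and Dtl, a CUL4 receptor that acts in S phase (1.25, adjusted p = 0.0376). The lower ones were Arih2, a ligase that works with CUL5 (-0.32, adjusted p = 0.0301), and Keap1, the CUL3 receptor for NRF2 (-0.17, adjusted p = 0.0410). In young mice Socs2 alone of the 27 was called, against 0.800% of all genes, at 104/69.0 CPM in Treg against 6.62/16.7 in Tconv (log2 fold change 2.90, SE 0.41, adjusted p = 0.0362).

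Skp2 was 5.93/15.6 (young), 27.7/7.22 (aged) and 32.8/34.8 CPM (Dcaf1-deficient) in Treg and 6.05/6.38, 5.17/4.80 and 7.81/6.56 in the same Tconv groups. Its highest 3 libraries were aged Treg 1 and both Dcaf1-deficient Treg, which also had the highest sums of macrophage genes. Fbxo5 was highest in the same 3, and it was 29.9/37.4 CPM in Dcaf1-deficient Tconv, where Skp2 was low. The erythroid sums of those Tconv libraries were 1483/1476 CPM, against 6.054 to 142.4 in wild-type Tconv. The part of other cells was not tested. In aged against young Tconv 1 of the 27 rose, against 6.38% of all genes, Ube2f, the NEDD8-conjugating enzyme for CUL5, from 53.5/58.1 to 75.8/89.3 CPM (log2 fold change 0.57, SE 0.11, adjusted p = 0.0248). None of the 27 was called by edgeR for age in Treg, for the genotype in either cell type or in the interactions; at an unadjusted p under 0.05 there were 1, 3, 8, 1 and 0 of them for age in Treg, the genotype in Tconv, the genotype in Treg and the 2 interactions, against 17.9%, 10.0%, 24.8%, 6.48% and 2.74% of all genes.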

How the data were processed

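Poly(A) RNA of 12 libraries was sequenced after a TruSeq preparation, per the labels' protocols. The authors deposited estimated counts per gene made with Salmon 0.9.1 on mm10, per the submitters' processing notes, and a table of log2 values whose transform is not given in the sources used here; the notes also name DESeq2. Rows dated by a spreadsheet (18) and 2 rows with a repeated name were kept. Estimated counts were rounded and tested with edgeR 4.0.16 in R 4.3.3 (TMM scaling, filterByExpr, quasi-likelihood test, 6 group means, Benjamini-Hochberg adjustment over 9495 genes, 1991 removed by the filter); 6 residual degrees of freedom remained. DESeq2 1.42.0, limma 3.58.1 on the deposited log2 values and the other fits of the closing section were alternatives. The edgeR script was tested on simulated counts. They were drawn without differences in sex, title tag or RNA of other cells, so that test does not bear on these. Lengths and positions came from GENCODE M21 (all 106 members matched, Vprbp as Dcaf1).

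Named by rule were Vprbp and the core genes, called members of at least 4 CPM, otherwise the 8 members of that level with the smallest p whose groups did not overlap, and the 3 highest per family. The members and lists were chosen with earlier results of these data known. Library totals limit precision to counting and replicate error; 2 libraries a group is the main limit.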

Additional observations from a re-analysis of the deposited data

How the results depend on the processing

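Counts of called members by alternative were as follows. DESeq2 gave 2 for Treg against Tconv in young mice (6.85% of all genes) and 24 over all conditions (31.2%). It gave 16 for age in Tconv (21.6%) and 4 for age in Treg (7.89%). For the genotype in Treg it gave 6 (12.8%) and for the age interaction 1 (1.38%). In the same order edgeR gave 0, 13, 3, 0, 0 and 0, against 0.800%, 22.5%, 8.86%, 0.00%, 0.00% and 0.00% of all genes. Leaving out single libraries gave 0 to 1, 2 to 23, 0 to 25, 0 to 2, 0 to 0 and 0 to 1. With the title tag as a term 1 member was called between cell types over all conditions (2.35% of all genes), and with a log2 fold change of at least 1 it was 4 (9.49%). Leaving out young Treg 2 and aged Treg 1 gave 8 for age in Tconv (14.7% of all genes) and 15 for the genotype in Treg (22.8%). Each fit with a library left out had a group of 1 library. The share of all genes called moved in these fits as well, so the ranges do not set the members apart. The cause of these shifts was not tested. For the genotype in Tconv and its interaction with cell type all alternatives gave 0. Few of all genes were called there, by DESeq2 2.45% and 0.00871%.

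With the replicate number as a block (replicate block) 7 members were called for age in Tconv, against 8.91% of all tested genes, and 12 between cell types over all conditions, against 20.2%. No label says that the numbers pair the samples. Deviations of same-numbered Treg and Tconv libraries correlated at 0.677 in young, 0.271 in aged and 0.041 in Dcaf1-deficient mice. These values cannot settle whether young or aged libraries were paired. By Xist, Dcaf1-deficient Treg 1 was male and Dcaf1-deficient Tconv 1 female.

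Of 1243 alternatives for named genes 1115 kept direction and side of the threshold, 85 fell short of it, 40 passed it and 3 reversed: Vprbp between cell types in young mice (a log2 fold change of 0.0027 with 2 libraries left out), Vprbp over all conditions (0.024 with the title tag) and Fbxw8 in the genotype interaction (0.015 with the sex term, added after the data were seen). All 85 that fell short were among the 263 alternatives of the 13 called gene comparisons, of which 178 kept the call. The RLE scaling moved the median of all genes by at most 0.043 on the log2 scale.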
